A study of Mus musculus with 8 samples.

Results

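Bone matrix proteins are made by osteoblasts, which lay down bone, and by osteocytes, the cells that osteoblasts become once the matrix has closed around them. The 10 genes described here are *Spp1*, *Ibsp*, *Dmp1*, *Mepe*, *Bglap*, *Bglap2*, *Sparc*, *Phex*, *Sost* and *Sp7*. The rule that picks them is their name as classical genes of these cells and uses no measured value. The list was chosen with earlier results of these data known, however, so its calls are no independent evidence of direction. The genes were found by their Ensembl identifiers among the 43629 genes of the count table. All 10 had at least 1 count, as did 17492 genes in all, and 5 of the 10 were among the 3793 genes that passed a filter on low counts.

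In bone, type I collagen forms the fibres on which mineral is laid. Osteopontin (*Spp1*), bone sialoprotein (*Ibsp*), *Dmp1* and *Mepe* are acidic phosphoproteins that bind mineral or control its growth, osteocalcin (*Bglap* and *Bglap2*) is the vitamin K-dependent protein of mature osteoblasts, and osteonectin (*Sparc*) binds collagen and calcium. *Phex* is an endopeptidase and *Sost* encodes sclerostin, an inhibitor of Wnt signaling, both typical of osteocytes, whereas *Sp7* encodes osterix, the transcription factor needed for osteoblast formation. Several of them are not restricted to bone cells. Osteoclasts and macrophages also make osteopontin, hypertrophic chondrocytes make *Spp1*, *Ibsp* and *Sp7*, and many connective tissue cells, chondrocytes included, make *Sparc*.

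The libraries came from *Axin2CreERT2;R26RTdTomato* mice, which carry a tamoxifen-dependent Cre under control of *Axin2*, a Wnt target gene, and a red fluorescent reporter, so that cells expressing *Axin2* at the time of the injections and their descendants are red. All animals received tamoxifen on consecutive days from P23 on and were sacrificed at P30. The resting zone libraries were made from red resting chondrocytes. The proliferative zone libraries were made from flat cells without the reporter, taken no nearer than 50 μm to the secondary ossification center. Laser microdissection was done on frozen sections 8 μm thick, of tibiae by the labels and of tibiae and femora by the study's text. The fluorescence marks cells by their Cre history, and no step purified single cells. Each of 4 mice (1 and 2 male, 6 and 13 female) gave 1 resting and 1 proliferative zone library, and both zones carried the same alleles and the same treatment. The question asked of the 10 genes was how they differed between the zones of the same animals.

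The libraries were shallow, with 192882 to 462044 counts on genes in resting and 249284 to 631474 in proliferative libraries, and their RNA had been amplified by in vitro transcription before sequencing. The zone labels were set against marker lists. Summed over 10 chondrocyte genes, the level was 7281 to 18908 CPM (a gene's counts scaled to the depth of its library) in resting and 33822 to 58575 CPM in proliferative libraries. *Col2a1*, the collagen of cartilage, was 1.36 lower on the log2 scale in the resting zone (edgeR adjusted p = 0.00277). Summed over 12 osteoclast genes, the level was 2044 to 5039.9 CPM in resting and 94.2 to 505 CPM in proliferative libraries. Among the proliferative libraries that of mouse 1 stood apart, with 505 CPM of the osteoclast list, while the other 3 lay between 94.2 and 141 CPM. The calls of the members, the wider bone list and the marker lists are also given without it.

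**Figure D1:**
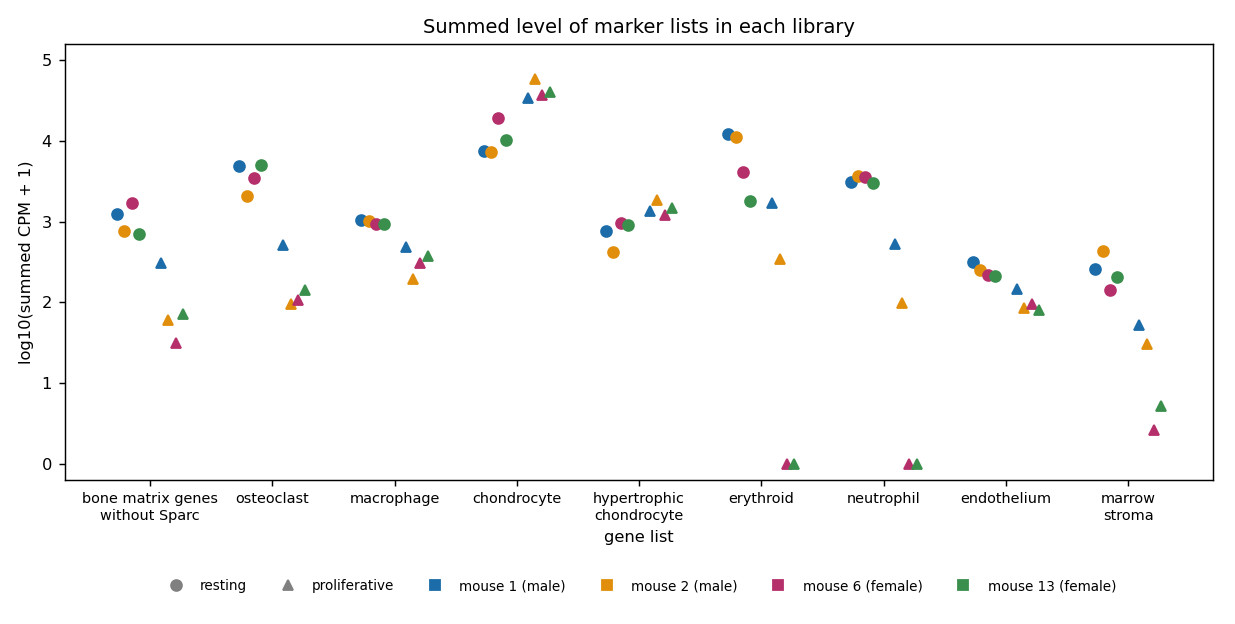
Summed level of each cell type's marker list, as log10(summed CPM + 1), with 1 point per library, circles for the resting and triangles for the proliferative zone, colours for the mice and the 9 bone matrix genes other than *Sparc* at the left. The osteoclast, macrophage, erythroid, neutrophil, endothelium and marrow stroma lists sit higher in all 4 resting libraries than in any proliferative library. The chondrocyte and hypertrophic chondrocyte lists sit lower.

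Of the 10 genes, 4 lie in a cluster of 238 kb on the plus strand of chromosome 5 (chr5:104202613-104441050, GRCm38). They are *Dmp1* (chr5:104202613-104214102), *Ibsp* (chr5:104299171-104311469), *Mepe* (chr5:104325329-104338611) and *Spp1* (chr5:104435118-104441050), and beside them lies the dentin gene *Dspp*, which had no count. *Bglap* (chr3:88383501-88384464) and *Bglap2* (chr3:88377736-88378699) are neighbouring copies on the minus strand of chromosome 3, beside *Bglap3*, another copy that also had no count. *Sparc* (chr11:55394500-55423183) and *Sost* (chr11:101962458-101967015) are on chromosome 11, *Sp7* (chr15:102356606-102367182) on chromosome 15 and *Phex* (chrX:157162075-157415312) on the X chromosome, all on the minus strand. No exon of the 10 overlapped an exon on the opposite strand in the GENCODE annotation.

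The copies of osteocalcin are so alike that their reads can be hard to assign, and their coding sequences (exons joined, chr3:88383635-88384415 and chr3:88377870-88378650, minus strand) are shown for that reason, with the bases that differ in capitals.
Bglap: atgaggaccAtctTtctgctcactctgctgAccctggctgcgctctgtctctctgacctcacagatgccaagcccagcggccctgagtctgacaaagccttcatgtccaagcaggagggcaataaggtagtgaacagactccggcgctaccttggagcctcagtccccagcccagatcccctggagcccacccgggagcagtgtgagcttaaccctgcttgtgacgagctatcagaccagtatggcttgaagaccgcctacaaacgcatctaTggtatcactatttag
Bglap2: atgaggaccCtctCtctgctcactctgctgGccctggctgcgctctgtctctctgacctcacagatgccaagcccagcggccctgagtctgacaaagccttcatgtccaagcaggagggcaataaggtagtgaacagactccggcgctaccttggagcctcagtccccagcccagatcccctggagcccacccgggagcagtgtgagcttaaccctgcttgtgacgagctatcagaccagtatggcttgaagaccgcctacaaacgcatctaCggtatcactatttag
The coding sequences are 288 bases long and differ at 4 bases, which is 98.6% identity. Of the 384 words of 57 bases in the *Bglap* transcript with this coding sequence, 278 (72.4%) also occur in another copy, and of the 415 words of *Bglap2*, 351 (84.6%) do. Reads of that length from these stretches cannot be assigned to 1 copy, so the split between *Bglap* and *Bglap2* is uncertain while their sum is less so.

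The promoters of 8 of the 10 genes were in the RefSeq promoter table (GRCm38.p6), with 10 start sites in all, and were searched on both strands over the 250 bases before the start. The letters searched were ACCACA, the core that Runx factors such as RUNX2 bind, and TATAAA, the TATA box. The promoters of osteocalcin, osteopontin and bone sialoprotein are shown, with matches in capitals, because their matches differ in position and strand. They are those of *Bglap* (chr3:88384467-88384716, minus strand), the first start of *Spp1* (chr5:104434861-104435110, plus strand) and *Ibsp* (chr5:104299037-104299286, plus strand).
Bglap: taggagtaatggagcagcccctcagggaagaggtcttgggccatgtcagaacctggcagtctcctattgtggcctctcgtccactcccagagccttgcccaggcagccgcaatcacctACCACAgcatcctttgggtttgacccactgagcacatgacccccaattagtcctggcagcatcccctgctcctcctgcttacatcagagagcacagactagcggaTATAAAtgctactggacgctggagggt
Spp1: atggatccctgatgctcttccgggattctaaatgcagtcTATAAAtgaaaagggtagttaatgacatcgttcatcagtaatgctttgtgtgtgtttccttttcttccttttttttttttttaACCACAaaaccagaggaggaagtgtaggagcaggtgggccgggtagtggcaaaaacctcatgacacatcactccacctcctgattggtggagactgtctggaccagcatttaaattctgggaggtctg
Ibsp: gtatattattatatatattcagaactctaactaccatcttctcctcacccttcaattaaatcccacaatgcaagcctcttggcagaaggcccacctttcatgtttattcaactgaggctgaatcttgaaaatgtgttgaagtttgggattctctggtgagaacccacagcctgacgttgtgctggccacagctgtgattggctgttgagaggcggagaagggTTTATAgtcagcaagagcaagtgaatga
The capitals in *Bglap* and *Spp1* mark both words on the gene's own strand, and those in *Ibsp* mark the TATA word read on the opposite strand. The first base of the Runx word lies 132 bases before the start of *Bglap* and 128 before that of *Spp1*. ACCACA was found in 4 of the 10 promoters, those of *Bglap*, *Dmp1*, *Mepe* and *Spp1*, and in 14.0% of all 32851 promoters of the same length. TATAAA was found in 4 of the 10, those of *Bglap*, *Ibsp*, *Mepe* and *Spp1*, and in 12.4% of all. A match says only that the letters are present in the window.

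In the resting zone, bone sialoprotein, osteopontin, *Dmp1* and osteocalcin were detected in all 4 mice, and in the proliferative zone they were at 12.4 CPM or lower outside mouse 1. Every resting library lay above every proliferative library for 5 of the 10 genes (*Spp1*, *Ibsp*, *Dmp1*, *Bglap* and *Bglap2*), and the same pattern was seen in 8.38% of all detected genes. Every proliferative library lay above every resting library for 1 gene, *Sp7*, and for 4.98% of all detected genes. The zones overlapped for *Mepe*, *Sparc*, *Phex* and *Sost*. In such pieces of tissue a difference in the number of cells of a type and a difference in RNA per cell cannot be told apart.

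A gene was called at an adjusted p below 0.01 and a log2 fold change above 1 or below -1. By edgeR's quasi-likelihood test 1 of the 5 genes past the filter, *Spp1*, was called higher in resting and 0 were called higher in proliferative libraries. Of all 3793 genes, 11.0% were called higher in resting and 6.93% in proliferative libraries. The filter asks for enough counts in as many libraries as a zone has. *Spp1*, *Ibsp* and *Dmp1* passed it through their resting libraries and *Sp7* through its proliferative libraries. Passing therefore already depended on the zone where each was higher, and the calls are no independent evidence of direction. The same can hold for genes of the lists below. At an unadjusted p below 0.05, 3 of the 5 (*Spp1*, *Ibsp* and *Dmp1*) were higher in the resting zone, beside 22.9% of all filtered genes. At the same limit 1 of the 5, *Sp7*, was higher in the proliferative zone, beside 17.5% of all filtered genes, and neither the likelihood ratio test nor DESeq2 called it. Scaled by library totals only, 72.7% of all calls were toward the resting zone, against 61.4% with the TMM factors used here. With edgeR's likelihood ratio test 3 of the 5 were called higher in the resting zone, *Spp1*, *Ibsp* and *Dmp1*, where 14.9% of all genes were. With the mouse as a block, *Spp1* and *Ibsp* were called, where 10.1% of all genes passed toward the resting zone. The count also turned on single libraries. Without the proliferative library of mouse 1, 4 genes were called (*Spp1*, *Ibsp*, *Bglap* and *Bglap2*, of 5 past the filter there), beside 11.7% of all genes. Without the resting library of mouse 1, 2 or 13, 0 genes of the set were called, beside 7.23%, 8.67% and 8.70% of all genes. Without the resting library of mouse 6 (13.0% of all genes) or the proliferative library of mouse 2, 6 or 13 (6.49%, 7.59% and 6.05%), the 2 osteocalcin genes were called and *Spp1* was not.

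In a fit over all 17492 detected genes, which also covers the 5 genes that the filter left out, 5 of the 10 were called higher in the resting zone, *Spp1*, *Ibsp*, *Dmp1*, *Bglap* and *Bglap2*, against 4.74% of all genes. By edgeR 0 of the 10 passed toward the proliferative zone, against 2.68% of all genes. At an unadjusted p below 0.05, 8 of the 10 were higher in the resting zone, all but *Sparc* and *Sp7*, and 1, *Sp7*, was higher in the proliferative zone, beside 14.5% and 8.50% of all detected genes. By DESeq2 over the same genes *Bglap* and *Bglap2* alone of the 10 were called, beside 3.80% of all genes. The SE of a gene was not the same in both fits. For *Sparc* it was 0.26 here and 0.25 among the filtered genes, but for *Ibsp* it was 0.37 here and 1.03 there on the log2 scale, and the edgeR adjusted p of *Ibsp* was 2.75e-19 against 0.0136.

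**Figure D2:**
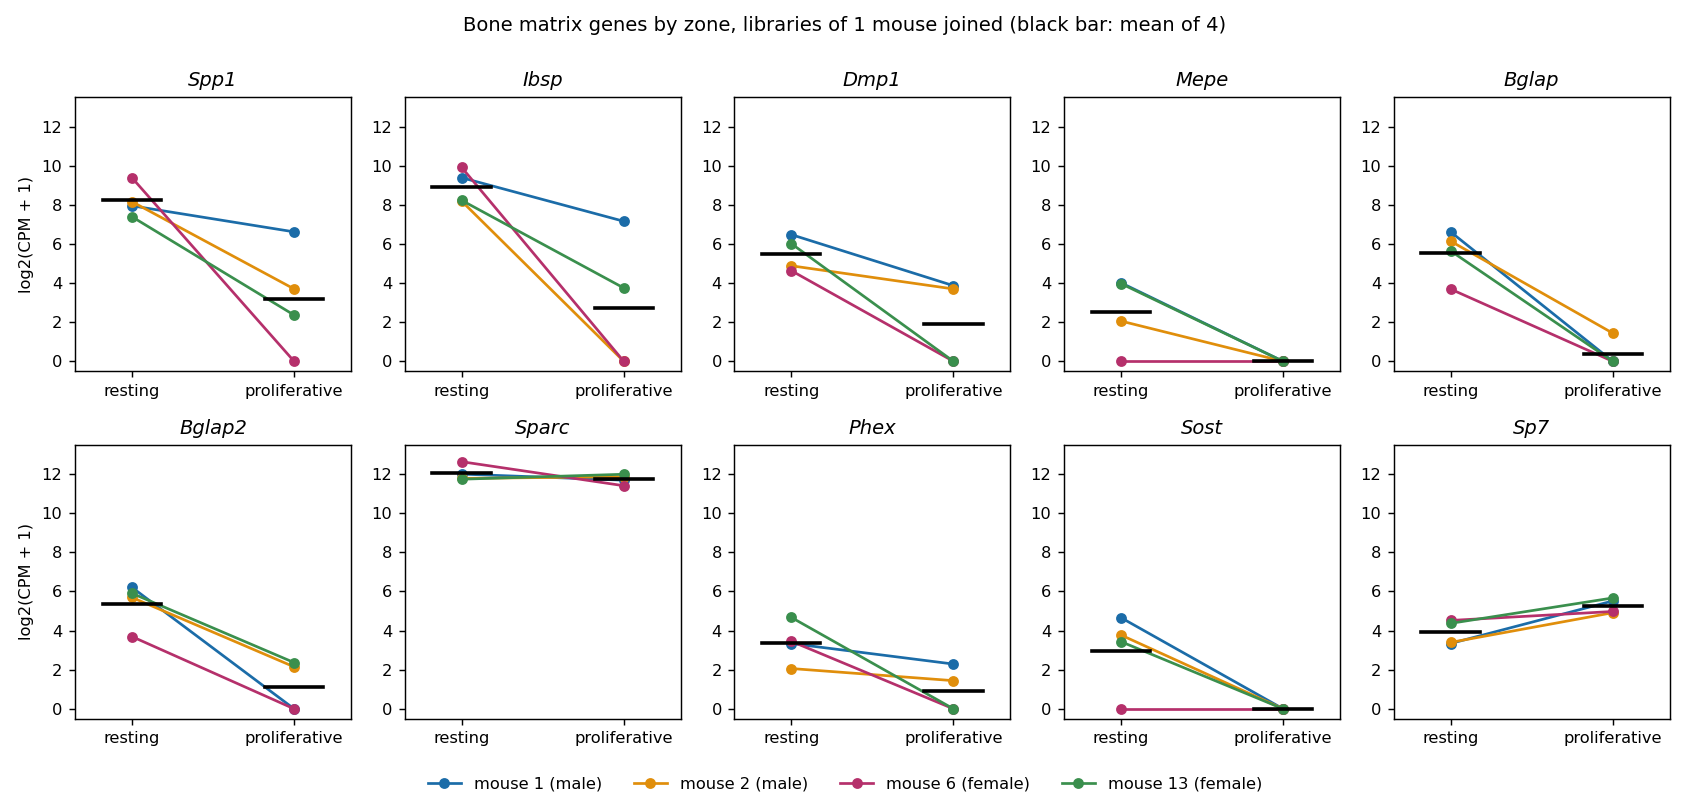
Level of each of the 10 genes as log2(CPM + 1) in every library, with the 2 libraries of each mouse joined by a line and the mean of the 4 mice as a black bar. *Spp1*, *Ibsp*, *Dmp1*, *Bglap* and *Bglap2* drop from resting to proliferative in all 4 mice, *Sp7* goes the other way in all 4, and *Sparc* is higher in the resting library in mice 1 and 6 and lower in mice 2 and 13.

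Osteopontin had the call that passed among filtered genes. In mice 1, 2, 6 and 13, the resting libraries held 81, 90, 336 and 34 counts of *Spp1*, or 246, 285, 668 and 167 CPM. The proliferative libraries held 50, 7, 0 and 1 counts, or 97.1, 12.0, 0 and 4.15 CPM. The groups did not overlap, the resting library of mouse 6 was the highest, and the proliferative library of mouse 1 was far above the other proliferative libraries. The mean was 342 ± 223 CPM in resting and 28.3 ± 46.1 CPM in proliferative libraries (SD, n = 4 mice), and the log2 fold change was 3.54 ± 0.87 (SE, edgeR adjusted p = 0.00847). When mice were entered as blocks it was 4.25 (adjusted p = 0.00569, edgeR), and the within-mouse difference of log2(CPM + 1) was 5.05 ± 3.32 (SD, n = 4 pairs), from 1.33 in mouse 1 to 9.39 in mouse 6. Without the proliferative library of mouse 1, it was 5.80 (adjusted p = 0.000165, edgeR). Leaving out any other single library lost the call, with an adjusted p of up to 0.0376 by edgeR, and by DESeq2 it was 0.0269.

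Bone sialoprotein had the largest fitted difference among the filtered members. The resting libraries of mice 1, 2, 6 and 13 held 220, 92, 486 and 61 counts of *Ibsp*, or 668, 292, 967 and 299 CPM. In the proliferative zone the counts were 73, 0, 0 and 3, or 142, 0, 0 and 12.4 CPM. Again the zones did not overlap, mouse 6 was highest in resting and mouse 1 in proliferative libraries. The log2 fold change was 3.82 ± 1.03 (SE, edgeR adjusted p = 0.0136) and was not called. With the mouse as a block it was 5.08 (adjusted p = 0.00280, edgeR) and was called. Without the proliferative library of mouse 1 it was 7.71 (adjusted p = 7.71e-05, edgeR). The within-mouse difference of log2(CPM + 1) was 6.21 ± 3.49 (SD, n = 4 pairs) and spread from 2.23 in mouse 1 to 9.92 in mouse 6.

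*Dmp1*, which osteocytes secrete and which controls phosphate balance together with *Phex*, was less abundant. The resting libraries held 29, 9, 12 and 13 counts of *Dmp1* in mice 1, 2, 6 and 13, or 88.1, 28.5, 23.9 and 63.8 CPM. In the proliferative zone there were 7, 7, 0 and 0 counts, or 13.6, 12.0, 0 and 0 CPM. The zones did not overlap, and the resting libraries of mice 1 and 13 were the highest. The log2 fold change was 2.79 ± 0.78 (SE, edgeR adjusted p = 0.0167) and was not called, whereas the likelihood ratio test (adjusted p = 0.000911, edgeR) and DESeq2 (adjusted p = 0.00271) called it. The within-mouse difference of log2(CPM + 1) was 3.61 ± 2.14 (SD, n = 4 pairs).

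*Mepe*, the last of the acidic proteins on chromosome 5, had 5, 1, 0 and 3 counts in the resting libraries of mice 1, 2, 6 and 13 and no count in the proliferative zone. The resting library of mouse 6, which had most *Spp1* and *Ibsp*, had none. Set against the limit that 0 counts allows, 3 counts over the 4 proliferative libraries (1.53 CPM), *Mepe* was 4.36-fold higher in resting libraries. This bound takes the 9 resting counts as exact and covers only the counting error of the 0. The resting library of mouse 1 held 5 of the 9 counts, and without it, a setting chosen after seeing the data, the bound was 2.56-fold. It was 6.95-fold without the resting library of mouse 6. The fitted adjusted p was 0.0506 by edgeR over all detected genes.

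**Figure D3:**
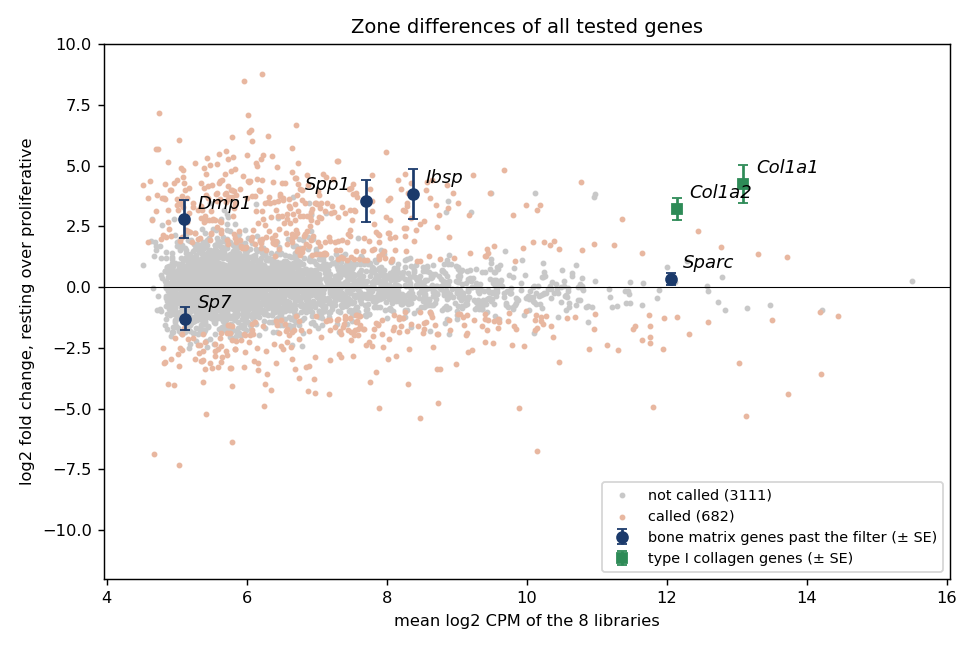
Log2 fold change of resting over proliferative zone against mean log2 CPM for the 3793 filtered genes, called genes in orange and the others in gray, with the 5 filtered bone matrix genes and the type I collagen genes marked with their SE. *Ibsp* (3.82), *Spp1* (3.54) and *Dmp1* (2.79) lie well above 0, *Sparc* (0.33) close to it and *Sp7* (-1.30) below.

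Osteocalcin counts came almost entirely from the resting libraries. *Bglap* had 32, 22, 6 and 10 counts in the resting libraries of mice 1, 2, 6 and 13 (97.2, 69.7, 11.9 and 49.1 CPM) and 0, 1, 0 and 0 in the proliferative libraries. *Bglap2* had 24, 16, 6 and 12 counts in the resting zone (72.9, 50.7, 11.9 and 58.9 CPM) and 0, 2, 0 and 1 in the proliferative zone. For both copies the lowest resting library was that of mouse 6 and the zones did not overlap. Unlike *Spp1* and *Ibsp*, neither copy had a count in the proliferative library of mouse 1. Pooled over mice and scaled to depth, the ratio of resting to proliferative counts was 102 for *Bglap* (exact 95% counting interval 17.7 to 4077) and 28.1 for *Bglap2* (9.15 to 140). In the fit over all detected genes both were called (edgeR adjusted p = 8.34e-09 and 5.13e-06, DESeq2 adjusted p = 1.46e-05 and 0.000189), and their fitted fold changes depend on the prior count. The log2 fold changes there were 5.92 and 4.45. Without single libraries they spanned 5.54 to 7.33 for *Bglap* and 3.99 to 5.23 for *Bglap2*, both highest without the proliferative library of mouse 2. Summed into 1 gene, the copies passed the filter, with a log2 fold change of 5.47 ± 0.85 (SE, edgeR adjusted p = 0.000569).

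*Phex* and *Sost*, the other osteocyte genes, were at the edge of detection. *Phex* had 3, 1, 5 and 5 counts in the resting libraries of mice 1, 2, 6 and 13 and 2, 1, 0 and 0 in the proliferative libraries. The zones overlapped and the pooled ratio was 6.79 (exact 95% counting interval 1.89 to 36.8, edgeR adjusted p = 0.206 over all detected genes). The fitted log2 fold change of *Phex* was 2.42. It spanned 1.92 without the resting library of mouse 13 to 3.37 without the proliferative library of mouse 1. *Sost* had 8, 4, 0 and 2 counts in resting and no count in proliferative libraries. The resting library of mouse 6 again had none, as for *Mepe*. Against the limit of 3 counts the bound for *Sost* was 6.79-fold, with its 14 resting counts likewise taken as exact. Mouse 1 held 8 of the 14 counts, and the bound was 3.84-fold without its resting library and 10.8-fold without that of mouse 6. Its adjusted p of 0.0129 by edgeR over all detected genes missed the threshold, but passed it with the likelihood ratio test (0.00778), with relative log expression factors (0.00833), with scaling by library totals only (0.00562) and without the resting library of mouse 6 (0.00481). It was 0.0857 by edgeR with the mouse as a block, 0.0558 by DESeq2 and between 0.0150 and 0.0936 by edgeR without any other single library.

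*Sparc* was by far the most abundant of the 10 in both zones and differed between zones by less than its spread. The resting libraries of mice 1, 2, 6 and 13 had 4079.7, 3499, 6333 and 3406 CPM, and the proliferative libraries 3291, 3725, 2702 and 4056 CPM. The ranges overlapped, and the resting zone was higher in 2 mice and lower in 2. The log2 fold change was 0.33 ± 0.25 (SE, edgeR adjusted p = 0.348), and 0.07 (adjusted p = 0.829, edgeR) without the resting library of mouse 6. Scaling by library totals only raised the median of all genes by 0.19 on the log2 scale and *Sparc* to 0.53, without a call. With *Sparc* included, the 10 genes together made up 0.434% to 0.875% of the counts in resting and 0.270% to 0.399% in proliferative libraries. Without *Sparc* the other 9 summed to 1230.3, 754, 1715 and 707 CPM in the resting libraries and to 301, 59.9, 30.4 and 70.5 CPM in the proliferative libraries of mice 1, 2, 6 and 13.

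*Sp7*, the transcription factor upstream of the matrix genes, had the opposite order of zones. It had 9.11, 9.51, 21.9 and 19.6 CPM in the resting libraries of mice 1, 2, 6 and 13 and 44.7, 29.1, 30.4 and 49.8 CPM in the proliferative libraries. The zones did not overlap, and the proliferative library was the higher in 4 of 4 mice. The counts behind this were few, 3 to 11 in resting and 12 to 23 in proliferative libraries. The log2 fold change was -1.30 ± 0.46 (SE), and its adjusted p of 0.0472 by edgeR missed the threshold. It was 0.0939 by edgeR when libraries were scaled by totals only, with a log2 fold change of -1.10. *Col10a1*, the collagen of hypertrophic chondrocytes, which also express *Sp7*, was 4.28 lower on the log2 scale in the resting zone (edgeR adjusted p = 0.00139), with 14 counts there and 392 in the proliferative zone. The summed level of 7 hypertrophic chondrocyte genes was 422 to 947 CPM in resting and 1201 to 1846 CPM in proliferative libraries. Of the 6 that passed the filter, *Col10a1* and *Panx3* were called higher in the proliferative zone and *Mmp13*, a collagenase, in the resting zone, with a log2 fold change of 4.66 (edgeR adjusted p = 0.00109). *Vegfa* (adjusted p = 0.841) and *Runx3* (0.717) were not called by edgeR, and neither was *Pth1r* (0.0119), which was called higher in the proliferative zone with the mouse as a block (0.00594). The part of these cells in the *Sp7* values was not tested.

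**Figure D4:**
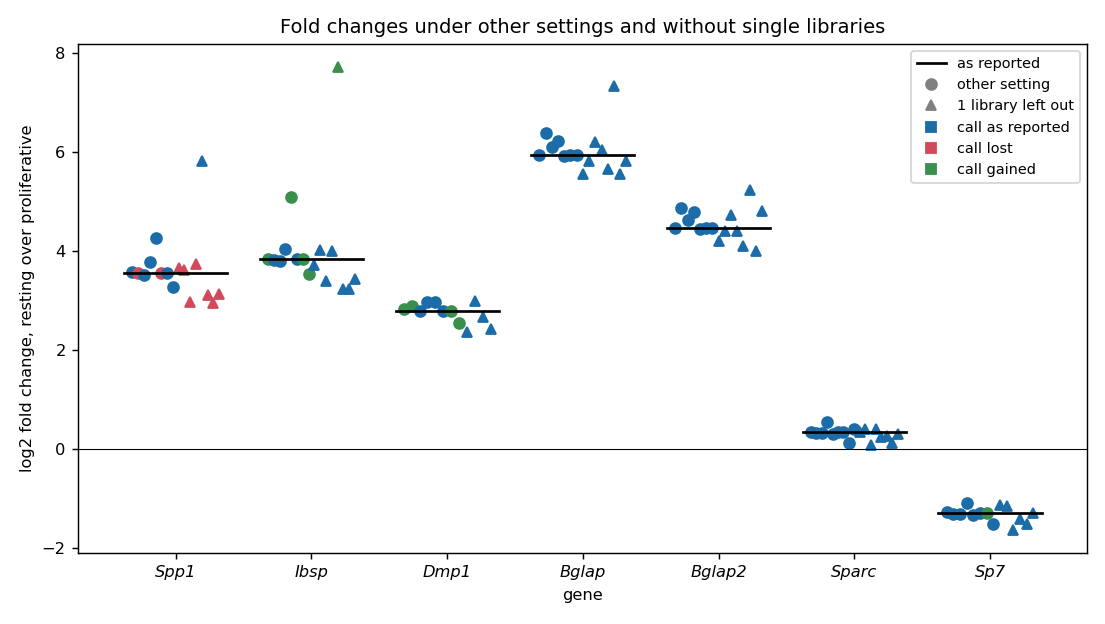
Log2 fold change, resting over proliferative, of 7 genes as reported (line), under other settings (circles) and with 1 library left out (triangles), in blue where the call stayed as reported, red where it was lost and green where it was gained. *Spp1*, *Ibsp*, *Dmp1*, *Sparc* and *Sp7* are from the filtered genes and *Bglap* and *Bglap2* from all detected genes. No value changes sign, and the triangles farthest above *Spp1* (5.80) and *Ibsp* (7.71) are those without the proliferative library of mouse 1.

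Levels between genes were compared per kilobase of exon, which is approximate because amplification from the poly(A) end leaves short products. In the resting zone the order was *Sparc* (1143 ± 361 CPM per kb, SD, n = 4), *Ibsp* (269 ± 157), *Spp1* (207 ± 136), *Bglap2* (103 ± 55.4), *Bglap* (92.2 ± 58.1) and *Dmp1* (18.5 ± 11.0). *Sost*, *Mepe*, *Sp7* and *Phex* followed, with means of 5.66 down to 1.86 CPM per kb. The ranges of neighbours overlapped except between *Sparc* and *Ibsp*. In the proliferative zone *Sparc* stood at 909 ± 155 CPM per kb and the gene next in order, *Ibsp*, at 18.6 ± 33.4.

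Within the resting zone the genes did not share 1 profile over the mice. Mouse 6 held 48.9% of the summed CPM of *Spp1*, 43.4% of *Ibsp*, 36.6% of *Sparc* and 36.4% of *Sp7*. For osteocalcin, *Dmp1* and the type I collagen genes it held far less, 5.24% of *Bglap*, 6.14% of *Bglap2*, 11.7% of *Dmp1*, 8.46% of *Col1a1* and 11.5% of *Col1a2*. Mouse 1 held the largest share of these, from 35.4% for *Col1a2* to 43.1% for *Dmp1*. Ratios of raw counts need no scaling. For every 100 *Ibsp* counts there were 25.5, 41.3, 2.47 and 36.1 osteocalcin counts in the resting libraries of mice 1, 2, 6 and 13, so mouse 6 stood apart from the rest. For every 100 *Col1a1* counts there were 0.658, 0.805, 0.465 and 0.735 osteocalcin counts, again lowest in mouse 6. These ratios rest on 56, 38, 12 and 22 osteocalcin counts and have no counting interval here. *Ibsp* counts per *Spp1* count were 2.72, 1.02, 1.45 and 1.79, without mouse 6 standing apart. The chondrocyte list was also highest in mouse 6, at 18908 CPM, with 7281 to 10094 CPM in the other resting libraries, and its part in these profiles was not tested. The profiles describe 4 libraries, with no test.

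**Figure D5:**
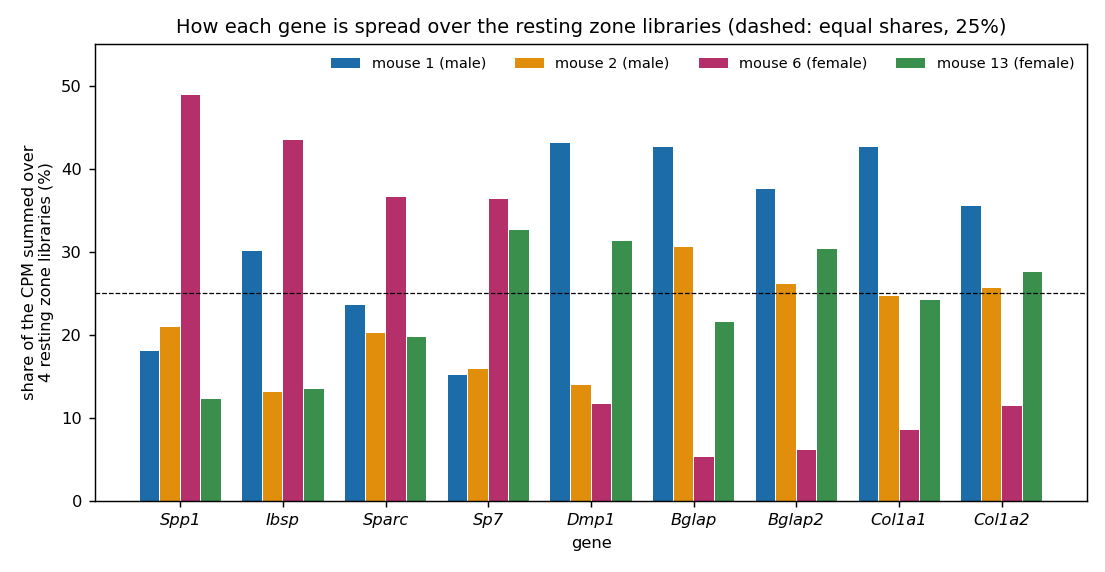
Share of each gene's CPM, summed over the 4 resting libraries, that fell in each mouse, as percent, with a dashed line at an equal share. Mouse 6 has the tallest bars for *Spp1* (48.9%), *Ibsp* (43.4%), *Sparc* and *Sp7* and the shortest for *Bglap* (5.24%), *Bglap2*, *Dmp1*, *Col1a1* and *Col1a2*.

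The summed levels of other cell type lists moved with the same zones, though not every gene of a list did. All 12 osteoclast genes had a count, 8 passed the filter and 7 were called higher in the resting zone, beside 11.0% of all 3793 genes, the share to set beside each list here. *Nfatc1* was not called (log2 fold change 1.31, edgeR adjusted p = 0.0660). *Acp5*, the tartrate-resistant acid phosphatase of osteoclasts, ranged from 589.6 to 2233 CPM in resting and from 0 to 136 CPM in proliferative libraries. *Ctsk*, the collagen-degrading protease, ranged from 593 to 1713 CPM and from 14.4 to 256 CPM. *Mmp9* ranged from 225 to 667 CPM and from 0 to 20.7 CPM. The neutrophil list summed to 2979 to 3674 CPM in resting and 0 to 522 CPM in proliferative libraries, with 5 of 6 filtered genes called. The erythroid list summed to 1811 to 12026 CPM and 0 to 1716 CPM, with 4 of 7 called, and the marrow stroma list to 139 to 428 CPM and 1.60 to 50.5 CPM, with 1 of 2 called. The macrophage list summed to 929 to 1039 CPM and 193 to 481 CPM, with 2 of 3 called, although its marker *Adgre1* had 1 count in all. *Csf1r* of that list had 512 resting and 572 proliferative counts and was not called (log2 fold change 0.28, edgeR adjusted p = 0.469). The endothelial list summed to 211 to 313 CPM and 78.8 to 144 CPM, with 0 of 1 called. The gene tested was *Eng* (log2 fold change -0.09, edgeR adjusted p = 0.861). Without the proliferative library of mouse 1, a setting chosen after seeing the data, the calls toward the resting zone were 8 of 9 osteoclast, 6 of 6 neutrophil, 7 of 7 erythroid, 2 of 2 marrow stroma, 3 of 4 macrophage, 2 of 4 endothelial, 1 of 5 hypertrophic chondrocyte and 0 of 10 chondrocyte genes, beside 11.7% of all genes. Toward the proliferative zone 5 of 10 chondrocyte and 2 of 5 hypertrophic chondrocyte genes were called there, beside 256 of 3875 genes. With all libraries 6 of 10 chondrocyte genes were called toward the proliferative zone, beside 6.93% of all genes.

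In the proliferative zone the library of mouse 1 had most *Spp1*, most *Ibsp*, most neutrophil signal (522 CPM, the others 0 to 95.9 CPM) and most osteoclast signal (505 CPM). In the resting zone the order was another one. The osteoclast list was lowest in mouse 2 (2044 CPM) and highest in mouse 13 (5039.9 CPM), whereas *Spp1* was highest in mouse 6 and lowest in mouse 13. The part of osteoclasts, macrophages or marrow cells in the values of *Spp1* and the other members was not tested.

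Among other genes of osteoblasts, osteocytes and mineralization, the type I collagen genes and *Col5a2* were called higher in the resting zone and *Smpd3* in the proliferative zone. Of 42 such genes, listed with earlier results of these data known and so no independent evidence of direction, 38 had a count and 20 passed the filter. Among these, 8 were called higher in resting and 1, *Smpd3*, in proliferative libraries, beside 11.0% and 6.93% of all filtered genes, and the median log2 fold change was 1.06, against 0.08 for all 3793 filtered genes. The 8 were *Col1a1*, *Col1a2*, *Col5a2*, *Cd44*, *Omd*, *Serpinf1* and, named because they complete the count, *Gja1* and *Ank*. The filter passed other numbers of the list when a library was left out. Without the proliferative library of mouse 2, 6 or 13, 4 of 23, 5 of 23 and 4 of 24 passed toward the resting zone, beside 6.49%, 7.59% and 6.05% of all genes. Without the proliferative library of mouse 1 or the resting library of mouse 6 it was 11 of 23, beside 11.7% and 13.0%. With the mouse as a block 7 passed, as *Ank* was lost (edgeR adjusted p = 0.0164).

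Of the 38 genes of the wider list with a count, 14 had every resting library above every proliferative library and 5 had the reverse, beside 8.38% and 4.98% of all detected genes, and 19 overlapped. The 5 were *Smpd3* and, named after their values were seen, *Dlx5*, *Fkbp10*, *Pth1r* and *Sgms2*, the last 4 with log2 fold changes of -1.43, -1.67, -1.66 and -1.82. Their adjusted p of 0.0280, 0.0102, 0.0119 and 0.0105 by edgeR were too high for a call. With the mouse as a block, 4 of the 20, *Fkbp10*, *Pth1r*, *Sgms2* and *Smpd3*, were called toward the proliferative zone, beside 6.06% of all genes. The number was 5 of the 20 with the likelihood ratio test, 4 with DESeq2 and 3 with relative log expression factors, beside 10.2%, 9.28% and 7.30% of all genes. It was 2 of 21 without the resting library of mouse 1 (4.44% of all genes), 2 of 23 without the proliferative library of mouse 6 (6.16%) and 3 of 23 without the resting library of mouse 6 (9.61%). In the fit over all detected genes 13 of 38 were called higher in resting and 5 in proliferative libraries, beside 4.74% and 2.68% of all detected genes.

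*Col1a1* and *Col1a2* encode the chains of type I collagen, the main protein of bone. *Col1a1* had 25866, 14955, 5133 and 14693 CPM in the resting libraries of mice 1, 2, 6 and 13 and 2229, 279, 152 and 531 CPM in the proliferative libraries. The zones did not overlap, and as for *Spp1* and *Ibsp* the proliferative library of mouse 1 was the highest of its zone. The log2 fold change was 4.25 ± 0.78 (SE, edgeR adjusted p = 0.00149) for *Col1a1* and 3.20 ± 0.44 (adjusted p = 0.000334) for *Col1a2*. Without that library it was 5.50 for *Col1a1* (adjusted p = 6.51e-05, edgeR) and 3.66 for *Col1a2* (adjusted p = 5.59e-05). *Col5a2*, a chain of the fibril-regulating type V collagen, had a log2 fold change of 3.35 ± 0.58 (SE, edgeR adjusted p = 0.00107). *Cd44*, a receptor for hyaluronan and osteopontin that blood cells also carry, had 4.75 ± 0.64 (SE, edgeR adjusted p = 0.000309), the largest of the set by this fit.

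*Omd* (osteomodulin, a keratan sulfate proteoglycan of mineralized tissue) had a log2 fold change of 2.00 (edgeR adjusted p = 0.00208) and *Serpinf1* (the secreted factor PEDF) of 2.40 (adjusted p = 0.00372). *Smpd3*, the sphingomyelinase needed for mineralization of cartilage and bone, fell by 2.94 on the log2 scale in the resting zone (edgeR adjusted p = 0.00141). *Alpl*, the alkaline phosphatase that supplies phosphate for mineral, ranged from 60.2 to 183 CPM in resting and 61.6 to 89.3 CPM in proliferative libraries (edgeR adjusted p = 0.164). *Runx2*, the master transcription factor of osteoblasts and hypertrophic chondrocytes, ranged from 111 to 206 CPM and 186 to 223 CPM (edgeR adjusted p = 0.517). The zones overlapped for both, and neither passed the test.

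For each filtered member the 3 genes with the most similar profile over the 8 libraries were found by Pearson's correlation of log2(CPM + 1), as a description, since the zone difference is shared by many genes. For *Ibsp* these were *Fcer1g* (0.979), *Serpine2* (0.979) and *Mmp13* (0.974), and for *Spp1* they were *Gm26857* (0.971), *Gm15856* (0.971) and *S100a8* (0.970). *Dmp1* was most like *Fap* (0.991), *Nme7* (0.971) and *Cxcl12* (0.968). *Sp7* was most like *Angptl2* (0.971), *Mtf1* (0.962) and *Lrsam1* (0.958), and *Sparc* was most like *Arid1a* (0.956), *Slc6a6* (0.923) and *Rps29* (0.923). No other member was among the genes named for any member.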

How the data were processed

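Reads were trimmed by the authors with BBDuk, aligned to GRCm38 with HISAT2 2.1.0 and counted per Ensembl gene with HTSeq 0.11.2, and the authors deposited whole-number counts without normalization. The strand setting of the counting was not given in the sources used here. A further deposited table held gene symbols and other text fields beside the authors' own comparison (fold changes, scores and p-values), of which only the symbols were used here. In all 1104 genes had no name.

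Counts were tested with edgeR 4.0.16 in R 4.3.3 (TMM factors, minimum count 10 and total 15 by zone, quasi-likelihood test, Benjamini-Hochberg adjustment over all genes tested, zone as the only term, common biological coefficient of variation 0.380). The study's methods name edgeR's likelihood ratio test, which was run as an alternative beside DESeq2 1.42.0, other scaling, other filters, a stricter test from edgeR, another threshold, the mouse as a block and each library left out. SEs are the log2 fold change divided by the root of its F value. CPM are counts scaled to the library total times its TMM factor, and log2(CPM + 1) has a pseudocount of 1. Depth ran from 192882 to 631474 counts, so 1 count was worth 1.60 to 4.91 CPM. Intervals cover counting error only. For bounds a count of 0 over a zone was set to 3 counts (2.22 CPM resting, 1.53 CPM proliferative), and the counts of the other zone were taken as exact.

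The labels tie libraries of the same number to the same mouse. After removal of zone means the libraries of a mouse correlated over genes at 0.165, 0.0136, 0.137 and 0.0577 in mice 1, 2, 6 and 13. The 10 members, the wider list and the marker lists were chosen with earlier results of these data known. Named genes are all members, *Bglap3*, 4 genes of the wider list whatever their values and the 5 others with the lowest p, the first 3 of a marker list, and the 3 most similar genes of each filtered member. Other genes named, such as *Dspp*, *Gja1*, *Ank*, *Dlx5* and the rest of the hypertrophic list, were chosen after their values were seen. Positions and coding sequences are from GENCODE M21 and promoters from RefSeq. Python 3.11.15 and matplotlib 3.10.9 were used for annotation and plots.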

Additional observations from a re-analysis of the deposited data

Results flagged for a closer look

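In groups of 4 libraries, 1 library was set against the rest by its gap to the nearest, divided by the range, with 0.829 as the limit that chance passes in about 5% of groups. That rate is for normally distributed values in a single group. Here several genes and lists were screened, some levels were 0, and no share of all genes is at hand, so the flags are a description. By the stated rule the 1 *Bglap* count in the proliferative library of mouse 2 would also pass, but it lies at the floor. The proliferative library of mouse 1 passed the limit for 2 of the 10 genes and for 1 marker list. *Spp1* was at 97.1 CPM there and at 0 to 12.0 CPM in the other 3 proliferative libraries. *Ibsp* was at 142 CPM there and at 0 to 12.4 CPM in the others. The osteoclast list summed to 505 CPM there and to 94.2 to 141 CPM in the others. Without this library the log2 fold change was 5.80 for *Spp1* and 7.71 for *Ibsp*. The part of osteoclast RNA in the *Spp1* and *Ibsp* values of this library was not tested.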

How the results depend on the processing

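No fold change of the 10 genes changed sign under any setting run. Calls of the 10 genes toward the resting zone among filtered genes are given with the share or number of all genes called. They were 3 with edgeR's likelihood ratio test (14.9%) and 2 with the replicate block (mouse) (10.1%). They were 0 when tested against a log2 change of 1 (207 of 3793 genes) and 3 at a threshold of 0.05 (635 of 3793). They were 5 over all detected genes (4.74%) and 0 among genes with at least 10 counts in every library (1 tested, *Sparc*, 140 of 1483 genes). Without single libraries they were 0 to 4 (6.05% to 13.0%). At 0.05, 1 was called higher in the proliferative zone (426 of 3793 genes). Over all detected genes the number toward the resting zone was 2 by DESeq2 (3.80%) and 1 with the filter by zone (11.0%). It was 4 to 6 without single libraries, where no share of all genes is at hand. *Spp1* lost its call by DESeq2 (3.56) and against a log2 fold change of 1 (3.54), and spanned 2.94 to 5.80 without single libraries. *Ibsp* gained one with the likelihood ratio test (3.84), the block (5.08), the threshold of 0.05 (3.82) and all detected genes (3.53), and spanned 3.22 to 7.71. *Dmp1* gained one with the likelihood ratio test (2.82), DESeq2 (2.88), the threshold of 0.05 (2.79) and all detected genes (2.54). *Sost* gained one with the likelihood ratio test (5.13), relative log expression factors (5.25), library totals only (5.33) and the threshold of 0.05 (5.13), and spanned 4.50 to 5.49. *Sp7* gained one at 0.05 (-1.30). The cause of these changes was not tested.

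The 8 genes of the wider list called higher in the resting zone became 4 against a log2 fold change of 1, 13 of 38 over all detected genes, 3 of 8 with at least 10 counts in every library and 4 to 11 without single libraries. The 1 called higher in the proliferative zone became 5 with the likelihood ratio test, 4 with DESeq2, 3 with relative log expression factors, 4 with the block, 5 at 0.05, 5 of 38 over all detected genes, 2 of 8 with at least 10 counts in every library and 1 to 3 without single libraries. Over all genes, calls toward the resting and proliferative zone were 207 and 82 of 3793 against a log2 fold change of 1, 635 and 426 at 0.05, 829 and 468 of 17492 over all detected genes, 566 and 386 with the likelihood ratio test, 495 and 352 with DESeq2, 416 and 277 with relative log expression factors, 140 and 133 of 1483 with at least 10 counts in every library, and 249 to 472 and 193 to 349 without single libraries. The block changed no other call of a member. *Dmp1* and *Sp7* did not pass the filter without some libraries and have no value there. Of the 10 genes, 7 had fewer than 100 counts in all, which limits what could be detected.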

Other observations

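Of 22 genes of the wider bone list that the filter left out, 4 had no count. Of the other 18, scaled to the depth of each zone, 15 (83.3%) had more counts on the resting side and 3 on the proliferative side, whereas of the 13699 genes with a count that the filter left out 61.2% had more on the resting side. The genes named here were chosen after their values were seen. Without scaling, *Msx2* had 0 resting and 6 proliferative counts, *Tnfrsf11b* 1 and 6 and *Lrp5* 0 and 1. *Fam20c*, a kinase of secreted proteins, had 21 and 27, a ratio of resting to proliferative of 1.13 after scaling to depth (exact 95% counting interval 0.608 to 2.08). *Postn*, the matrix protein of periosteum and ligament, had 71 resting and 3 proliferative counts. *Lox*, the enzyme that cross-links collagen, had 109 and 11, *Cdh11*, the osteoblast cadherin, 67 and 7, and *Slc20a1*, a phosphate transporter, 64 and 2. In each of these 4 every resting library lay above every proliferative library, as in 8.38% of all detected genes. *Ifitm5*, a membrane protein of osteoblasts, had 25 and 3 counts (edgeR adjusted p = 0.0208 over all detected genes). *Phospho1*, *Fgf23* and *Kremen2* had no count in any library. *Tnfsf11*, which encodes the osteoclast-inducing ligand RANKL, had 4 resting and 0 proliferative counts.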
